A study of Mus musculus with 3 samples.

Results

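The genes of the mitochondrial respiratory chain were followed through single-cell RNA-sequencing libraries of the mouse bladder lining (urothelium). Members were the gene symbols that begin with Nduf, Sdha to Sdhd, Uqcr, Cox4 to Cox8 or Atp5, together with the protein-coding genes of mitochondrial DNA (mt-N, mt-C and mt-A symbols). They numbered 110 of 31053 genes, of which 97 were nuclear and 13 mitochondrial. The study made 3 droplet-based 3′ libraries, 1 from Lpar6 knockout mice (Lpar6 KO), 1 from Cab39l knockout mice (Cab39l KO) and 1 from wild-type mice (WT). The Lpar6 product is a cell-surface receptor that binds lysophosphatidic acid, and the Cab39l product helps to hold the kinase LKB1 in its active complex. Each library was a pool of urothelial cells of 15 mice, loosened with trypsin inside the ligated bladder, strained and freed of red blood cells on a Ficoll gradient. The alleles, strain, sex and age of the mice, and any treatment, are not given in the sources used here. Animals cannot be told apart in a pool and there is 1 library per group, so no test was possible, the spread between mice is unknown, and every interval given here covers counting error only.

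The respiratory chain sits in the inner mitochondrial membrane. Complexes I and II pass electrons from NADH and succinate to ubiquinone, complex III hands them to cytochrome c, and complex IV (cytochrome c oxidase) gives them to oxygen. Proton pumping by complexes I, III and IV drives ATP synthase, complex V. All complexes but II are built from subunits of both genomes: most are encoded in the nucleus and imported, and a small core is transcribed from mitochondrial DNA inside the organelle.

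By complex, the nuclear members were 36 subunits of complex I, 4 of complex II, 8 of complex III, 19 of complex IV and 16 of complex V. The prefixes also took in 8 assembly factors of complex I (Ndufaf genes), 4 of complex II (Sdhaf genes), and 1 other factor each beside complexes IV (Cox7a2l) and V (Atp5s). Ndufa4 and Ndufa4l2 were counted with complex IV, to which the Ndufa4 protein is now assigned. The mitochondrial members encode 7 subunits of complex I, 1 of complex III, 3 of complex IV and 2 of complex V. Atp5o stands under 2 gene identifiers, 1 of which held at most 1 UMI in urothelial cells of any library.

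Urothelial cells were barcodes with at least 5000 UMIs (unique molecular identifiers, counted once per captured transcript), at most 20% mitochondrial UMIs, and at least 0.2% of UMIs from the uroplakins Upk1a, Upk1b, Upk2 and Upk3a, the plaque proteins of the bladder surface. They numbered 4834 in Lpar6 KO, 5466 in Cab39l KO and 3176 in WT, with median depths of 26994 UMIs in Lpar6 KO, 29960.5 in Cab39l KO and 22252.5 in WT. The leukocyte markers Ptprc, Cd52 and Cd74 summed to between 2.96 and 21.9 CPM (UMIs scaled to a library total of 1000000) in urothelial cells, against 4862 to 7138 CPM in the other cells, those under 0.2% uroplakin UMIs. Some other markers differed between the libraries in urothelial cells: 3 neutrophil markers summed to 0.171 CPM in Lpar6 KO, 0.0375 CPM in Cab39l KO and 47.5 CPM in WT, and 3 erythroid markers to 117 CPM in Lpar6 KO, 50.5 CPM in Cab39l KO and 244 CPM in WT. The 4 markers of secretory male glands summed to 2.42 CPM in Lpar6 KO, 275 CPM in Cab39l KO and 10.7 CPM in WT. Lpar6 had 0 UMIs in urothelial cells of Lpar6 KO, 1938 in Cab39l KO and 1080 in WT. Cab39l was at 31.7 CPM in Cab39l KO, against 94.0 CPM in Lpar6 KO and 112 CPM in WT, so its remaining tags do not show whether the protein was lost. The libraries shared 16 to 19 barcode sequences per pair, at most 0.235% of the smaller library.

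The wild-type library stood apart before any gene was compared. Of its barcodes with at least 5000 UMIs, 32.7% exceeded the limit of 20% mitochondrial UMIs, against 11.5% in Lpar6 KO and 12.7% in Cab39l KO. The median mitochondrial share of the urothelial cells kept was 6.27% in Lpar6 KO, 6.17% in Cab39l KO and 9.02% in WT. The nuclear RNA Malat1 was at 11136 CPM in Lpar6 KO and 8957 CPM in Cab39l KO, against 21723 CPM in WT. Gm42418, a locus that overlaps a ribosomal RNA repeat, was at 2033 CPM in Lpar6 KO, 1864 CPM in Cab39l KO and 11832 CPM in WT. The median uroplakin share was 1.02% of UMIs in Lpar6 KO, 0.947% in Cab39l KO and 0.714% in WT. The part of these library differences, and of the marker differences above, in the results was not tested.

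In urothelial cells, the nuclear and the mitochondrial genes of the chain stood on opposite sides of WT in both knockout libraries when counts were scaled to the library total; under TMM scaling, which picks factors that hold most genes level, the mitochondrial sum was level and the nuclear sum higher. Nuclear members together made up 29413 CPM in Lpar6 KO, 29619 CPM in Cab39l KO and 23644 CPM in WT, or 2.94% of all UMIs in Lpar6 KO, 2.96% in Cab39l KO and 2.36% in WT. On the log2 of (CPM + 1) scale, on which all log2 differences here are given, that is 0.32 higher in Lpar6 KO (95% counting interval 0.31 to 0.32) and 0.33 higher in Cab39l KO (0.32 to 0.33). The 13 mitochondrial genes together made up 67749 CPM in Lpar6 KO, 68218 CPM in Cab39l KO and 90940 CPM in WT. They were lower by 0.42 in Lpar6 KO (log2 -0.42) and by 0.41 in Cab39l KO (log2 -0.41). The mitochondrial total is bounded by the limit on the mitochondrial share that selects the cells. The ratio of mitochondrial to nuclear UMIs of the chain was 2.30 in each knockout, against 3.85 in WT.

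**Figure D1:**
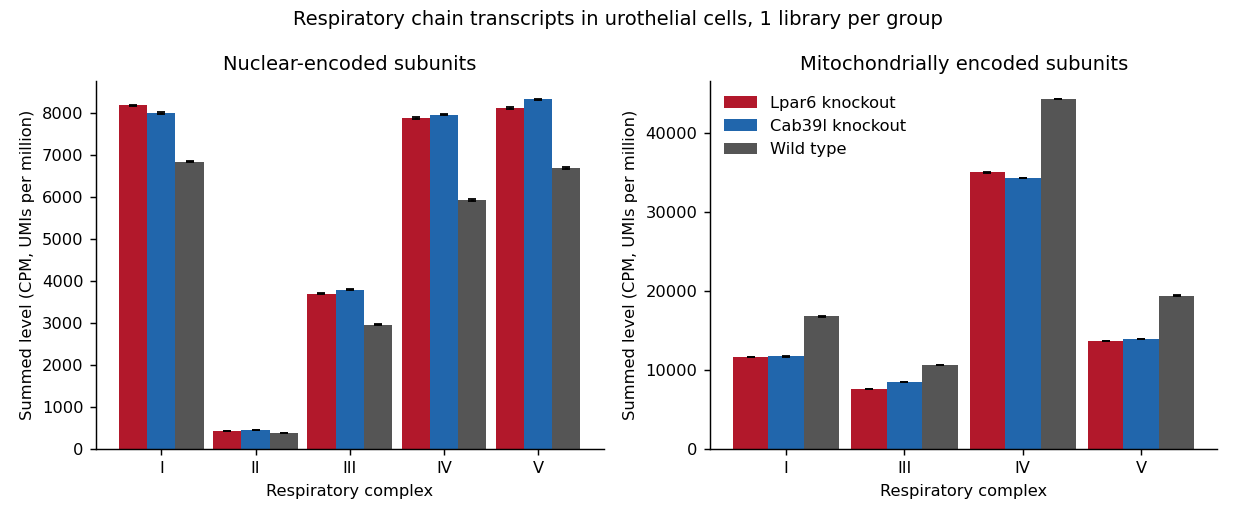
Summed level (CPM) of nuclear-encoded subunits (left) and mitochondrially encoded subunits (right) of each respiratory complex in urothelial cells. Bars are the single library of each group and whiskers are exact 95% Poisson intervals. Every nuclear sum is higher in both knockouts than in WT on this scale and under TMM (complex IV 7880 CPM in Lpar6 KO, 7965 in Cab39l KO and 5929 in WT). Every mitochondrial sum is lower on this scale (complex IV 34982 CPM in Lpar6 KO, 34249 in Cab39l KO and 44262 in WT), while under TMM complex IV turns to 0.08 in Lpar6 KO and 0.04 in Cab39l KO, and complex III to 0.08 in Cab39l KO (log2 against WT).

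A fold limit of 1.5 was used to name members, over the 7036 genes with a mean of at least 10 CPM in urothelial cells of the 3 libraries. That level was reached by 86 nuclear and all 13 mitochondrial members. The 11 others, including Cox8b and Cox8c without a UMI, were too low to be read. In Lpar6 KO against WT, 5 members were at least 1.5-fold higher, where 1.25% of all genes tested were, and 3 were at least 1.5-fold lower, where 30.3% of all genes were. In Cab39l KO against WT, 5 members were higher beside 0.966% of all genes, and 4 were lower beside 31.9% of all genes. On the log2 of (CPM + 1) scale, all members past the limit on the high side were nuclear and all on the low side were mitochondrial. The share of all genes called higher ran with transcript length, as given below.

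The background of these comparisons was itself tilted. Their median over all genes tested was -0.34 in Lpar6 KO and -0.31 in Cab39l KO, and the tilt ran with transcript length. The median of nuclear members was 0.25 in Lpar6 KO, with 74 of 86 above 0, and 0.26 in Cab39l KO, with 76 of 86 above 0. Length here is that of the longest annotated transcript of a gene. Which transcript is present in these cells was not read, so members and genes of 1 bin may differ in true length. Many respiratory chain transcripts are short, and up to 2 kb genes of the same bin lay nearer to the members than all genes did. Above 2 kb the gap between members and genes of the same bin stayed wide, and it cannot show a difference at matched length. Among genes with transcripts of up to 1 kb, 36 nuclear members had a median of 0.30 in Lpar6 KO, beside 0.26 for all 373 genes of that length, and of 0.26 in Cab39l KO, beside 0.21. Between 1 and 2 kb, 27 members had a median of 0.26 in Lpar6 KO, beside 0.08 for all 1286 genes, and of 0.29 in Cab39l KO, beside 0.11. Between 2 and 4 kb, 18 members had a median of 0.11 in Lpar6 KO, beside -0.29 for all 2700 genes, and of 0.23 in Cab39l KO, beside -0.23. Above 4 kb, 5 members had a median of 0.34 in Lpar6 KO, beside -0.65 for all 2660 genes, and of 0.32 in Cab39l KO, beside -0.70. Up to 1 kb, 3 of 36 members were 1.5-fold higher in Lpar6 KO and 2 of 36 in Cab39l KO, beside 25 of 373 genes in each. These counts are near that share and are not read as a result about the members. Between 1 and 2 kb, 1 of 27 members was higher in Lpar6 KO (38 of 1286 genes) and 3 of 27 in Cab39l KO (31 of 1286). Between 2 and 4 kb, 1 of 18 was in Lpar6 KO (20 of 2700 genes). The mitochondrial genes are short as well but lay on the other side, at medians of -0.51 (Lpar6 KO) and -0.48 (Cab39l KO), with all 13 below 0 in both on this scale.

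The choice of scaling decides where 0 lies. Under TMM factors the median of all genes moved to 0.05 in Lpar6 KO and 0.07 in Cab39l KO. TMM adds 0.42 to each log2 value of Lpar6 KO against WT and 0.41 to each of Cab39l KO. The nuclear sum was then 0.73 higher in each knockout, with 85 of 86 nuclear members above 0 in Lpar6 KO and 84 in Cab39l KO; only Ndufs1, and in Cab39l KO also Ndufaf4, stayed below. Counts past 1.5-fold moved with it: under TMM, 54 members were higher in Lpar6 KO (14.4% of all genes tested) and 59 in Cab39l KO (14.6%), and 1 was lower in Lpar6 KO (3.55%) and 2 in Cab39l KO (5.39%). The mitochondrial sum stood at -0.01 in each knockout, with 3 of 13 genes above 0 in Lpar6 KO and 5 in Cab39l KO. Levels, directions and calls past 1.5-fold below are on the total-count scale unless said otherwise. Members short of the limit there can pass it under TMM. Under median-of-ratios factors, 82 of 86 nuclear members were above 0 in Lpar6 KO and 83 in Cab39l KO, with 3 of 13 mitochondrial genes above 0 in each. There 46 members were past 1.5-fold on the high side in Lpar6 KO (11% of all genes tested) and 44 in Cab39l KO (9.55%), and 2 on the low side in Lpar6 KO (5.8%) and 3 in Cab39l KO (8.97%). The gap between the nuclear and mitochondrial sums is the same on every one of these scales.

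**Figure D2:**
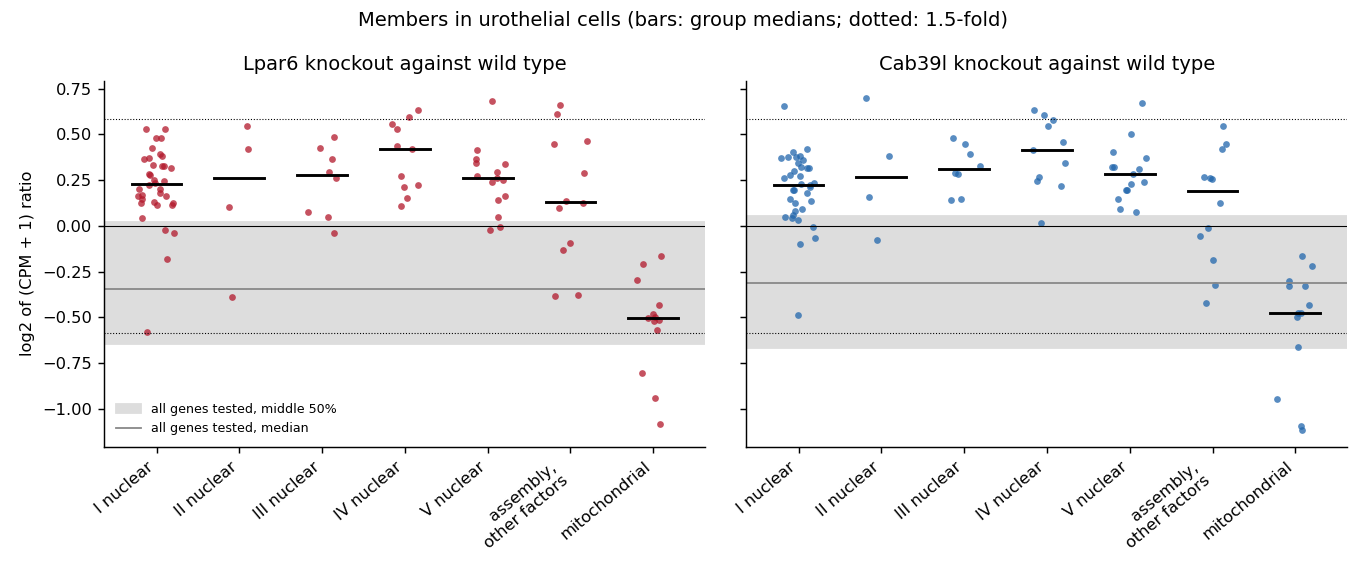
Log2 of (CPM + 1) ratio of each member with a mean of at least 10 CPM in urothelial cells, by complex, for Lpar6 KO (left) and Cab39l KO (right) against WT; points are genes, black bars are group medians, the grey band is the middle 50% of all 7036 genes tested and dotted lines mark 1.5-fold. Nuclear subunit medians lie between 0.23 (complex I) and 0.42 (complex IV), above the grey band, and the mitochondrial median (-0.51 in Lpar6 KO, -0.48 in Cab39l KO) lies inside it.

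Complex I is the entry point for electrons from NADH. Its 36 nuclear subunits summed to 8182 CPM in Lpar6 KO, 8001 CPM in Cab39l KO and 6842 CPM in WT, which puts them 0.26 higher in Lpar6 KO and 0.23 higher in Cab39l KO. In both comparisons 32 of the 36 were above 0. The most abundant were the accessory subunits Ndufa7, Ndufa13 and Ndufb11. Ndufa7 was at 548 CPM in Lpar6 KO, 529 CPM in Cab39l KO and 436 CPM in WT. Ndufa13 was at 449 CPM in Lpar6 KO, 455 CPM in Cab39l KO and 401 CPM in WT. Ndufb11 was at 463 CPM in Lpar6 KO, 434 CPM in Cab39l KO and 332 CPM in WT. These accessory subunits differed by less than 1.5-fold, with both knockouts above WT.

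The subunits that carry electrons through complex I did not move together. Ndufv1, which binds NADH and the flavin that first takes its electrons, lies on chr19:4007384-4012806 (GRCm38) and was at 118 CPM in Lpar6 KO, 129 CPM in Cab39l KO and 81.8 CPM in WT. It was 0.65 higher in Cab39l KO and 0.53 higher in Lpar6 KO, where it fell short of the 1.5-fold limit. Ndufs1, the largest iron-sulfur subunit, lies on chr1:63143596-63176833 and had the lowest log2 of all nuclear members in both comparisons. It was at 23.6 CPM in Lpar6 KO, 25.3 CPM in Cab39l KO and 35.8 CPM in WT (-0.58 in Lpar6 KO and -0.49 in Cab39l KO). The counting intervals of both knockouts lay below that of WT (34.5 to 37.1 CPM), and neither difference reached 1.5-fold on the log2 of (CPM + 1) scale. In Lpar6 KO it fell just short, and whether it passes depends on the 1 CPM that is added.

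Complex II, succinate dehydrogenase, is also an enzyme of the citrate cycle and has no mitochondrially encoded subunit. Its 4 subunits summed to 419 CPM in Lpar6 KO, 447 CPM in Cab39l KO and 369 CPM in WT. Both catalytic subunits were short of 1.5-fold. Sdha, which holds the flavin, was at 109 CPM in Lpar6 KO, 113 CPM in Cab39l KO and 101 CPM in WT, or 0.10 higher in Lpar6 KO and 0.16 in Cab39l KO. Sdhb, which holds the iron-sulfur clusters, was at 147 CPM in Lpar6 KO, 143 CPM in Cab39l KO and 109 CPM in WT (0.42 higher in Lpar6 KO and 0.38 in Cab39l KO). The membrane anchors stood on opposite sides of WT on the total-count scale. Sdhd (chr9:50596357-50603812) was at 88.3 CPM in Lpar6 KO, 98.5 CPM in Cab39l KO and 60.2 CPM in WT. It was 0.70 higher in Cab39l KO, the highest of all nuclear members there, and 0.55 higher in Lpar6 KO. Its partner Sdhc was at 74.9 CPM in Lpar6 KO, 93.2 CPM in Cab39l KO and 98.5 CPM in WT (-0.39 in Lpar6 KO and -0.08 in Cab39l KO). Under TMM its difference in Lpar6 KO is 0.02, so that only the gap of Sdhd over Sdhc stands on either scale.

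Complex III, the cytochrome bc1 complex, summed to 3699 CPM for 8 nuclear subunits in Lpar6 KO, 3787 CPM in Cab39l KO and 2958 CPM in WT (0.32 higher in Lpar6 KO and 0.36 in Cab39l KO). Its most abundant members were small accessory subunits. Uqcrh, the hinge protein, was at 989 CPM in Lpar6 KO, 961 CPM in Cab39l KO and 705 CPM in WT. Uqcr10 was at 887 CPM in Lpar6 KO, 920.5 CPM in Cab39l KO and 660 CPM in WT, and Uqcrb, a ubiquinone-binding subunit, was at 576 CPM in Lpar6 KO, 601 CPM in Cab39l KO and 546 CPM in WT. On the total-count scale none of the complex III subunits was 1.5-fold apart from WT in either knockout. Of all genes tested, 30.3% were 1.5-fold lower and 1.25% higher in Lpar6 KO, and 31.9% and 0.966% in Cab39l KO. Under TMM, Uqcrh, Uqcr10, Uqcr11, Uqcrq and Uqcrfs1 passed 1.5-fold on the high side in both knockouts. There Uqcrc1 did so in Cab39l KO only, and Uqcrb and Uqcrc2 in neither. The core protein Uqcrc1 was the nuclear member with the lowest value of Lpar6 KO relative to Cab39l KO, at 96.8 CPM in Lpar6 KO, 121 CPM in Cab39l KO and 99.4 CPM in WT.

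Complex IV had the highest nuclear values of any complex relative to WT. Its nuclear subunits summed to 7880 CPM in Lpar6 KO, 7965 CPM in Cab39l KO and 5929 CPM in WT (0.41 higher in Lpar6 KO and 0.43 in Cab39l KO). All 11 subunits that reached 10 CPM were above 0 in both comparisons. Cox8a (chr19:7215153-7217616), the small subunit VIII, was at 1364 CPM in Lpar6 KO, 1402 CPM in Cab39l KO and 903 CPM in WT, or 0.59 higher in Lpar6 KO and 0.63 in Cab39l KO. Cox5a (chr9:57521274-57532426), a subunit that faces the matrix, was at 576 CPM in Lpar6 KO, 563 CPM in Cab39l KO and 370 CPM in WT (0.64 higher in Lpar6 KO and 0.60 in Cab39l KO). Both passed the 1.5-fold limit in both comparisons. Cox4i1, the most abundant nuclear member, was at 1858 CPM in Lpar6 KO, 1826 CPM in Cab39l KO and 1370 CPM in WT, and Cox6c at 744 CPM in Lpar6 KO, 784 CPM in Cab39l KO and 617 CPM in WT, both short of the limit.

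Several subunits of complex IV have a general form and forms of heart, muscle, lung or testis. The general form held over 99% of the UMIs of each such pair in urothelial cells of every library. Cox4i1 made up nearly all Cox4i UMIs in urothelial cells. Cox4i2, a form known from lung, had 5 UMIs in Lpar6 KO, 6 in Cab39l KO and 1 in WT. Cox6a2, the heart and muscle form, had 3 UMIs in Lpar6 KO, 1 in Cab39l KO and 1 in WT, beside 205 CPM of Cox6a1 in Lpar6 KO, 209 in Cab39l KO and 176 in WT. Cox6b2, a testis form, was at 1.47 CPM in Lpar6 KO, 1.79 CPM in Cab39l KO and 1.27 CPM in WT. Its general form Cox6b1 was at 572 CPM in Lpar6 KO, 585 CPM in Cab39l KO and 426 CPM in WT. Cox7a1, the heart and muscle form, was at 2.98 CPM in Lpar6 KO, 3.22 CPM in Cab39l KO and 2.73 CPM in WT. Cox7a2 was at 460 CPM in Lpar6 KO, 475 CPM in Cab39l KO and 318 CPM in WT, and the related supercomplex factor Cox7a2l was at 702 CPM in Lpar6 KO, 694 CPM in Cab39l KO and 508 CPM in WT. Ndufa4l2, known as a hypoxia-induced relative of Ndufa4, had 16 UMIs in Lpar6 KO, 14 in Cab39l KO and 3 in WT. Ndufa4 was at 600 CPM in Lpar6 KO, 597 CPM in Cab39l KO and 408 CPM in WT. These rare forms lie at a level that free RNA in droplets can give, and their differences between libraries cannot be read. Cox8b, the heart and muscle form of subunit VIII, and Cox8c, a testis form, had no UMI, which allows up to 3 UMIs per library, the floor used for a count of 0.

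Complex V, ATP synthase, summed to 8119 CPM over its nuclear subunits in Lpar6 KO, 8331 CPM in Cab39l KO and 6693 CPM in WT (0.28 higher in Lpar6 KO and 0.32 in Cab39l KO). Its most abundant subunits by mean were Atp5e, Atp5h and Atp5l. Atp5e, the epsilon subunit of the rotor stalk, was at 990 CPM in Lpar6 KO, 1069 CPM in Cab39l KO and 806 CPM in WT. Atp5h, a subunit of the stator, was at 807 CPM in Lpar6 KO, 783 CPM in Cab39l KO and 683 CPM in WT, and Atp5l, a membrane subunit, at 810 CPM in Lpar6 KO, 786 CPM in Cab39l KO and 628 CPM in WT. The head subunits that make ATP were close to WT in Lpar6 KO on the total-count scale only. Under TMM, Atp5b was 0.41 and Atp5a1 0.47 higher there. Atp5b, the catalytic beta subunit, was at 456 CPM in Lpar6 KO, 537 CPM in Cab39l KO and 457 CPM in WT, and Atp5a1, the alpha subunit, was at 498 CPM in Lpar6 KO, 552 CPM in Cab39l KO and 481 CPM in WT.

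The ring of complex V that turns in the membrane is made of subunit c, and the genes Atp5g1, Atp5g2 and Atp5g3 encode the same mature protein behind different import sequences. Atp5g2 (chr15:102662864-102672352) was at 838 CPM in Lpar6 KO, 830 CPM in Cab39l KO and 521 CPM in WT. It was 0.68 higher in Lpar6 KO, the highest of all nuclear members there, and 0.67 higher in Cab39l KO. Atp5g1 was at 417 CPM in Lpar6 KO, 411 CPM in Cab39l KO and 329 CPM in WT, and Atp5g3 was at 351 CPM in Lpar6 KO, 328 CPM in Cab39l KO and 277 CPM in WT, neither past 1.5-fold. Atp5g2 made up 52.2% of subunit c UMIs in Lpar6 KO, 52.9% in Cab39l KO and 46.2% in WT, where Atp5g1 and Atp5g3 each had a larger share. In other cells, Atp5g2 held 50.8% in Lpar6 KO (164 UMIs), 42.0% in Cab39l KO (1146 UMIs) and 42.2% in WT (1103 UMIs).

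The assembly factors were low. Sdhaf1, which helps to put iron-sulfur clusters into Sdhb, was at 38.9 CPM in Lpar6 KO, 32.7 CPM in Cab39l KO and 24.2 CPM in WT (0.66 higher in Lpar6 KO and 0.42 in Cab39l KO). Ndufaf8, an assembly factor of complex I, was at 107 CPM in Lpar6 KO, 103 CPM in Cab39l KO and 70.0 CPM in WT (0.61 higher in Lpar6 KO and 0.54 in Cab39l KO). Both passed the limit in Lpar6 KO. Ndufaf4, another complex I factor, was at 17.5 CPM in Lpar6 KO, 17.0 CPM in Cab39l KO and 23.1 CPM in WT (-0.38 in Lpar6 KO and -0.42 in Cab39l KO), and Sdhaf2, which helps Sdha to take up its flavin, at 24.0 CPM in Lpar6 KO, 24.9 CPM in Cab39l KO and 31.4 CPM in WT (-0.38 in Lpar6 KO and -0.32 in Cab39l KO). These factors belong to the few nuclear members below WT in both knockouts, and under TMM they lie within 0.1 of WT (0.02 to 0.03 in Lpar6 KO, -0.03 and 0.07 in Cab39l KO).

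The promoters of the nuclear members were read for known motifs, since several nuclear regulators of respiration bind next to the start of such genes. RefSeq promoters (GRCm38.p6, 250 bases before to 50 after the start) were matched for 80 nuclear members. The NRF1 motif CGCATGCGC, on either strand, was found in 10 of the 80 (12.5%), beside 2.61% of 17492 protein-coding genes. The ETS-type motif CCGGAAG of GABPA was found in 21 (26.2%), beside 12.9% of all, and the YY1 motif AAGATGGCG in 8 (10%), beside 2.14%. The TATA box TATAAA was found in 8 (10%), beside 14.8% of all. A match describes letters in the window and says nothing of binding in these cells. The promoters of the 3 highest nuclear members of Lpar6 KO against WT (Atp5g2, Sdhaf1 and Cox5a) and of the highest of Cab39l KO (Sdhd) are shown 5′ to 3′ on the gene's strand, with a motif in capitals. Atp5g2 (chr15:102670998-102671297, minus strand) holds overlapping NRF1 matches on both strands. Sdhd (chr9:50603800-50604099, minus strand) and Sdhaf1 (chr7:30322326-30322625, minus strand) hold the ETS-type motif read on the other strand. Cox5a (chr9:57520982-57521281, plus strand) holds none of them.
Atp5g2: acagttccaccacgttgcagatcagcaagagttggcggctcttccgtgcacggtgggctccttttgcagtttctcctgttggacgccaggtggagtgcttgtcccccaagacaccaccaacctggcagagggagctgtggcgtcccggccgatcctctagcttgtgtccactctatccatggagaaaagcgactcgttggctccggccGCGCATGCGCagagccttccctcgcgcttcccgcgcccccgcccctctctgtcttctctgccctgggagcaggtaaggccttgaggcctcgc
Sdhd: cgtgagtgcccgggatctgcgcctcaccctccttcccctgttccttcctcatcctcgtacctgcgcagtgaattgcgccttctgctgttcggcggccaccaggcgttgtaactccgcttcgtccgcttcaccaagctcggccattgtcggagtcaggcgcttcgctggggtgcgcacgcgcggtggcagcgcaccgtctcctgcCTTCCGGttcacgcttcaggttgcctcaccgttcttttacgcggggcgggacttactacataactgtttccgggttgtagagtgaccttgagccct
Sdhaf1: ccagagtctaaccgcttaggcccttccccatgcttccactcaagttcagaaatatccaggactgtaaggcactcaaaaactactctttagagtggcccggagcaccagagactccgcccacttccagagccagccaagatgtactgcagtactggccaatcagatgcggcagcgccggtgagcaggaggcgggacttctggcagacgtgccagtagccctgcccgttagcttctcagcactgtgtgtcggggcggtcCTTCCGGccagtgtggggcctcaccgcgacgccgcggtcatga
Cox5a: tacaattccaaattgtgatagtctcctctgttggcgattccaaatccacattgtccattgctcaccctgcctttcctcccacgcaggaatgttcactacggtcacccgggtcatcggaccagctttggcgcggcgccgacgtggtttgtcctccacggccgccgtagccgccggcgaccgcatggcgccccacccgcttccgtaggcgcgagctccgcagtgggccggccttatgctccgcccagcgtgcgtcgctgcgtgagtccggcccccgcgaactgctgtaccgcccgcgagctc

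The mitochondrial genome is transcribed as long RNAs that are cut at the tRNAs between genes, so its mRNAs are made together and differ mainly in what happens after cutting. As background, the mRNAs of mice receive a poly(A) tail, which 3′ libraries capture, and mt-Nd6, alone on the other strand, is known in mammals as the mRNA without a regular tail. Of the genes on chrM (GRCm38), mt-Atp8 (chrM:7766-7969, plus strand) shares 43 bases with mt-Atp6, and mt-Nd4l (chrM:9877-10173, plus strand) shares 7 bases with mt-Nd4. Each of these pairs sits on a single mRNA whose tail follows the downstream gene, so a tag in the upstream gene does not mark the end of that mRNA. Both upstream genes are shown whole because their values stood out, with the bases shared with the downstream gene in capitals.
mt-Atp8: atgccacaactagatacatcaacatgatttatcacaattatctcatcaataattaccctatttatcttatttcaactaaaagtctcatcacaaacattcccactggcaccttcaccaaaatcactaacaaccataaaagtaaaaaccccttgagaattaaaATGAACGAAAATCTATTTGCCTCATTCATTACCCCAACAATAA
mt-Nd4l: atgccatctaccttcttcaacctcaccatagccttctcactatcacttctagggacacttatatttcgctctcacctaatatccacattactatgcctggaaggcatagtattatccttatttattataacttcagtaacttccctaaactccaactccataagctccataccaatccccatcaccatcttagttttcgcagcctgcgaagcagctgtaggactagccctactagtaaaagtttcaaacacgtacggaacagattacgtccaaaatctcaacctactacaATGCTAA

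The last 60 bases of the coding sequence are shown next for genes at either end of the range of differences from WT, on the strand of the gene, with the closing codon in capitals. These are mt-Nd2 (chrM:3914-4951), mt-Nd1 (chrM:2751-3707), mt-Co1 (chrM:5328-6872) and mt-Nd6 (chrM:13552-14070, minus strand). Alongside them mt-Cytb (chrM:14145-15288) ends in a single T, which the tail completes to a stop codon. The longest run of A inside mt-Nd2 was 8 bases, with 3 runs of at least 6, the longest such run of the mitochondrial genes. mt-Nd6 had none above 3 bases.
mt-Nd2: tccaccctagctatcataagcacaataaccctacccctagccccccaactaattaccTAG
mt-Nd1: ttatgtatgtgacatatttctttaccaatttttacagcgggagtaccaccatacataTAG
mt-Co1: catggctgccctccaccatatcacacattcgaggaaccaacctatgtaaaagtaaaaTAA
mt-Nd6: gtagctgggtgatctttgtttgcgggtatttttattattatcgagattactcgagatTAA
mt-Cytb: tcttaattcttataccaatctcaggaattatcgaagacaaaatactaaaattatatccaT

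Under total-count scaling, each of the 13 mitochondrial genes had a lower level in the knockouts than in WT, and they differed widely in how much. mt-Atp8, a small subunit of complex V, was at 100.5 CPM in Lpar6 KO, 98.1 CPM in Cab39l KO and 214 CPM in WT (-1.08 in Lpar6 KO and -1.11 in Cab39l KO), the lowest member in both comparisons. mt-Nd2, a proton-pumping subunit of complex I, was at 2264 CPM in Lpar6 KO, 2260 CPM in Cab39l KO and 4346 CPM in WT, which is -0.94 in each knockout. mt-Nd6 was at 26.0 CPM in Lpar6 KO (25.1 to 26.9), 21.1 CPM in Cab39l KO (20.4 to 21.8) and 46.1 CPM in WT (44.7 to 47.7). Its log2 values were -0.80 in Lpar6 KO and -1.09 in Cab39l KO. These were the genes past 1.5-fold in both comparisons, and they stay below WT under TMM.

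The longest mitochondrial mRNA of complex I, mt-Nd5, passed the limit in Cab39l KO only, with 516 CPM there (-0.66), 578 CPM in Lpar6 KO (-0.50) and 818 CPM in WT. At the other end, mt-Co1, the catalytic subunit of complex IV that holds the oxygen-binding site, was at 13769 CPM in Lpar6 KO, 12543 CPM in Cab39l KO and 15450 CPM in WT (-0.17 in Lpar6 KO and -0.30 in Cab39l KO). mt-Nd1 was at 3317 CPM in Lpar6 KO, 3291 CPM in Cab39l KO and 3829 CPM in WT (-0.21 in Lpar6 KO and -0.22 in Cab39l KO). mt-Co2, which takes electrons from cytochrome c, stood at -0.30 in Lpar6 KO and -0.33 in Cab39l KO, and mt-Co3 at -0.57 in Lpar6 KO and -0.48 in Cab39l KO. mt-Atp6, which forms the proton channel with the c ring, stood at -0.51 in Lpar6 KO and -0.48 in Cab39l KO. mt-Cytb, the only complex III subunit of this genome, stood at -0.48 in Lpar6 KO and -0.33 in Cab39l KO. mt-Nd4 stood at -0.52 in Lpar6 KO and -0.50 in Cab39l KO, and mt-Nd3 at -0.43 in each. Under TMM, mt-Co1, mt-Co2 and mt-Nd1 lie above WT in both knockouts, and mt-Cytb and mt-Nd4l do so in Cab39l KO; under median-of-ratios factors mt-Nd1 and mt-Co1 do so in both, mt-Co2 in Lpar6 KO and mt-Nd4l in Cab39l KO.

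The make-up of the mitochondrial transcripts is a share within the mitochondrial UMIs, which neither the scaling nor the total moves. mt-Atp6 held 19.9% of mitochondrial UMIs in Lpar6 KO, 20.2% in Cab39l KO and 21.1% in WT, and mt-Co1 held 20.3% in Lpar6 KO, 18.4% in Cab39l KO and 17.0% in WT. mt-Nd2 held 3.34% in Lpar6 KO and 3.31% in Cab39l KO, against 4.78% in WT. mt-Atp8 held 0.148% in Lpar6 KO, 0.144% in Cab39l KO and 0.235% in WT. mt-Nd1 went the other way, with 4.90% in Lpar6 KO and 4.82% in Cab39l KO, against 4.21% in WT.

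The same directions stood in cells outside the urothelial set. In the other cells, mt-Nd2 held 5.01% of mitochondrial UMIs in Lpar6 KO, 4.72% in Cab39l KO and 5.98% in WT. mt-Atp8 held 0.186% in Lpar6 KO, 0.182% in Cab39l KO and 0.295% in WT there, and mt-Nd1 held 4.70% in Lpar6 KO, 4.92% in Cab39l KO and 3.85% in WT. Of these values, the counting intervals of knockout and WT overlapped for mt-Atp8 in Lpar6 KO only. In barcodes above the limit of 20% mitochondrial UMIs, mt-Nd2 held 3.65% in Lpar6 KO, 3.72% in Cab39l KO and 4.92% in WT. There mt-Atp8 held 0.162% in Lpar6 KO, 0.149% in Cab39l KO and 0.251% in WT, and mt-Nd1 held 3.93% in Lpar6 KO, 4.10% in Cab39l KO and 3.64% in WT. The wild-type library thus differed from both knockout libraries in the same genes in urothelial cells, in other cells and in barcodes left out for their mitochondrial share. For mt-Nd6 the share stayed below WT in all these groups in Cab39l KO, but not in Lpar6 KO. Above the limit it was 0.0618% in Lpar6 KO, 0.0421% in Cab39l KO and 0.0566% in WT. In other cells it was 0.0716% in Lpar6 KO, 0.0586% in Cab39l KO and 0.0764% in WT, with overlapping counting intervals.

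**Figure D3:**
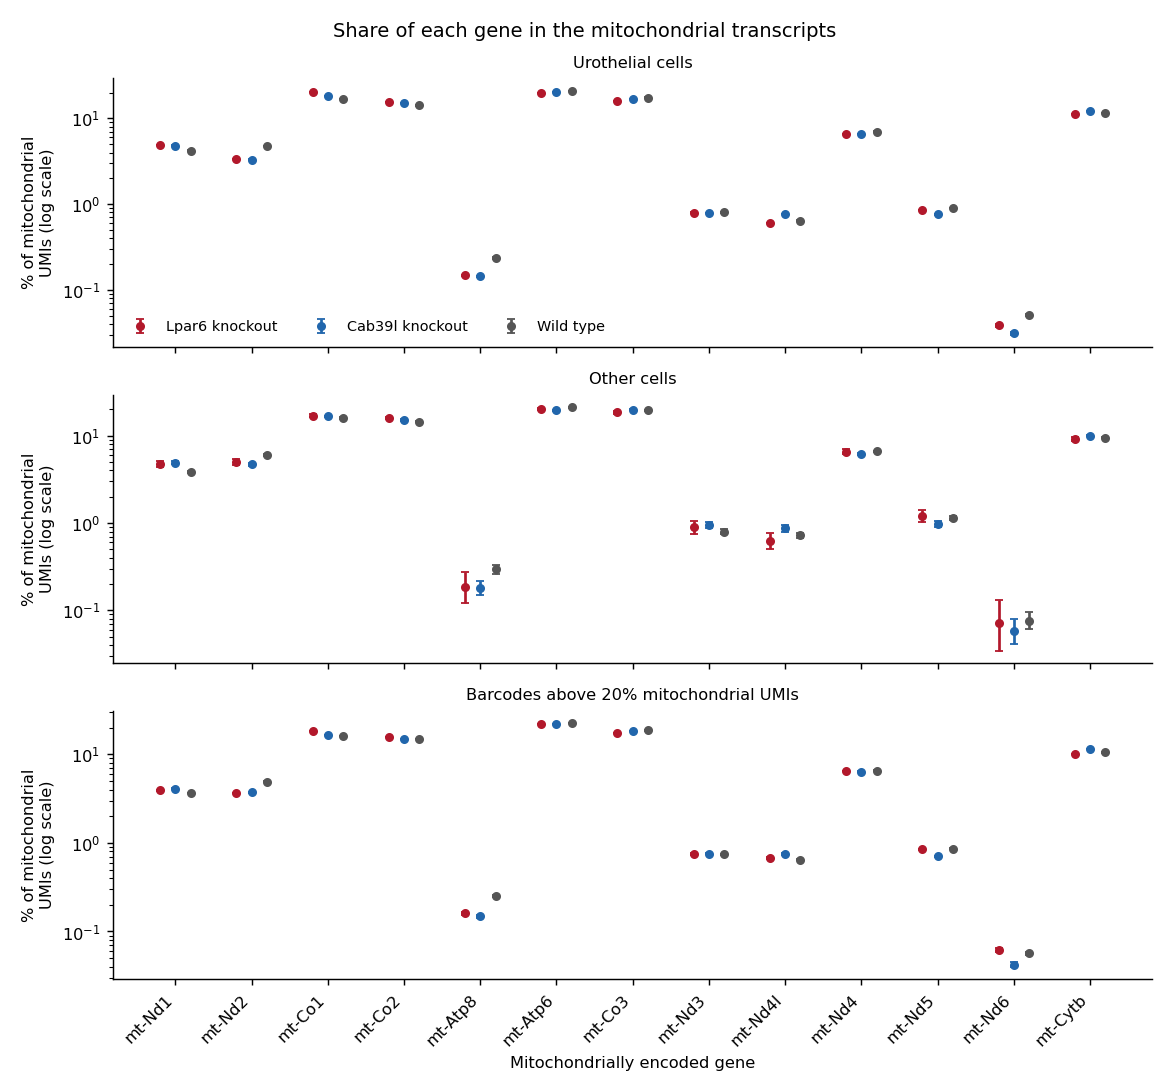
Share of each mitochondrial gene (in genome order) in all mitochondrial UMIs, on a log axis, in urothelial cells, other cells and barcodes above 20% mitochondrial UMIs; points are single libraries and whiskers exact 95% binomial intervals. In all panels mt-Nd2 and mt-Atp8 are lower and mt-Nd1 is higher in both knockouts than in WT, and mt-Nd4l separates Cab39l KO from Lpar6 KO.

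Set against each other, the knockout libraries were close. No member was 1.5-fold apart between Lpar6 KO and Cab39l KO, where 0.526% of all genes tested were higher and 0.611% lower in Lpar6 KO. The median absolute log2 difference was 0.06 over the 86 nuclear members, 0.03 over the 13 mitochondrial members and 0.09 over all genes tested. Both knockouts were compared with the same wild-type library, so their agreement against it counts that library 2 times. The extremes between the knockouts were Uqcrc1 (-0.32) and Sdhaf1 (0.24) among nuclear members. Among mitochondrial members they were mt-Nd4l (-0.35), a small membrane subunit of complex I, and mt-Nd6 (0.29). mt-Nd4l was at 409 CPM in Lpar6 KO, 523 CPM in Cab39l KO and 585 CPM in WT. Of the mitochondrial UMIs of urothelial cells it held 0.603% in Lpar6 KO, 0.766% in Cab39l KO and 0.643% in WT. In other cells it held 0.630% in Lpar6 KO, 0.869% in Cab39l KO and 0.721% in WT. In both cell groups Cab39l KO had the largest share, and the counting intervals of Lpar6 KO and WT overlapped in the other cells.

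Among urothelial cells of 1 library, the nuclear level was read in bins of the mitochondrial share, as CPM over the non-mitochondrial UMIs alone, which the mitochondrial total cannot dilute. At 5 to 10% mitochondrial UMIs the level was 31556 in Lpar6 KO (3991 cells), 31841 in Cab39l KO (4068 cells) and 27531 in WT (1681 cells). At 15 to 20% it was 29124 in Lpar6 KO (178 cells), 30084 in Cab39l KO (273 cells) and 19610 in WT (479 cells). The level was almost flat over the kept cells of both knockouts and dropped with the mitochondrial share in WT. Per cell, Spearman's rho between these shares was 0.03 over 4834 cells of Lpar6 KO, -0.01 over 5466 cells of Cab39l KO and -0.63 over 3176 cells of WT. Cells of a library share their source and depth, so these are descriptions. The drop in WT was not particular to the chain. From 5 to 10% to 15 to 20%, the ribosomal protein gene Rpl13 went from 9194 to 5241 in WT. It went from 9839 to 7644 in Lpar6 KO and from 9372 to 8172 in Cab39l KO. Malat1 in WT went from 19492 to 46439 over the same bins. The part of such a general shift in the level of the members was not tested. Of the urothelial cells, 3.68% in Lpar6 KO, 4.99% in Cab39l KO and 15.1% in WT lay in the bin of 15 to 20%.

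Above the limit the wild-type library parted further. At 20 to 50% mitochondrial UMIs, the nuclear level was 23104 in Lpar6 KO (610 barcodes), 25104 in Cab39l KO (732 barcodes) and 13114 in WT (1364 barcodes). Among cells of 5 to 10% mitochondrial UMIs, the nuclear sum was 0.21 higher in Lpar6 KO and 0.22 higher in Cab39l KO, and the mitochondrial share in this bin was still lower in the knockouts (6.44% in Lpar6 KO, 6.36% in Cab39l KO and 7.18% in WT). In these cells 0 members were at least 1.5-fold higher in Lpar6 KO, where 0.421% of all genes tested were, and 1 in Cab39l KO, where 0.29% were. The all-gene medians there were -0.26 (Lpar6 KO) and -0.23 (Cab39l KO).

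The nuclear level also ran with the uroplakin share, which is higher in cells nearer to the bladder surface. At 0.2 to 0.5% uroplakin UMIs it was 29144 non-mitochondrial CPM in Lpar6 KO, 29556 in Cab39l KO and 23438 in WT. At 2% and over it was 34538 in Lpar6 KO (129 cells), 36110 in Cab39l KO (100 cells) and 32314 in WT (21 cells). The level was higher at each step of uroplakin share in each of the 3 libraries, and WT was below both knockouts in each bin. Cells at 0.2 to 0.5% made up 5.07% of the urothelial cells in Lpar6 KO, 8.62% in Cab39l KO and 21.2% in WT. Among cells with at least 1% uroplakin UMIs, the nuclear sum was 0.20 higher in Lpar6 KO, with 0 members 1.5-fold higher (0.492% of all genes tested), and 0.21 higher in Cab39l KO, with 1 such member (0.333% of all genes tested). Depth moved with the same levels: in WT, cells of 5000 to 10000 UMIs had 21605 and cells of 40000 UMIs and over had 28701, while the knockouts ranged over 30597 to 32771 (Lpar6) and 29709 to 32846 (Cab39l).

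**Figure D4:**
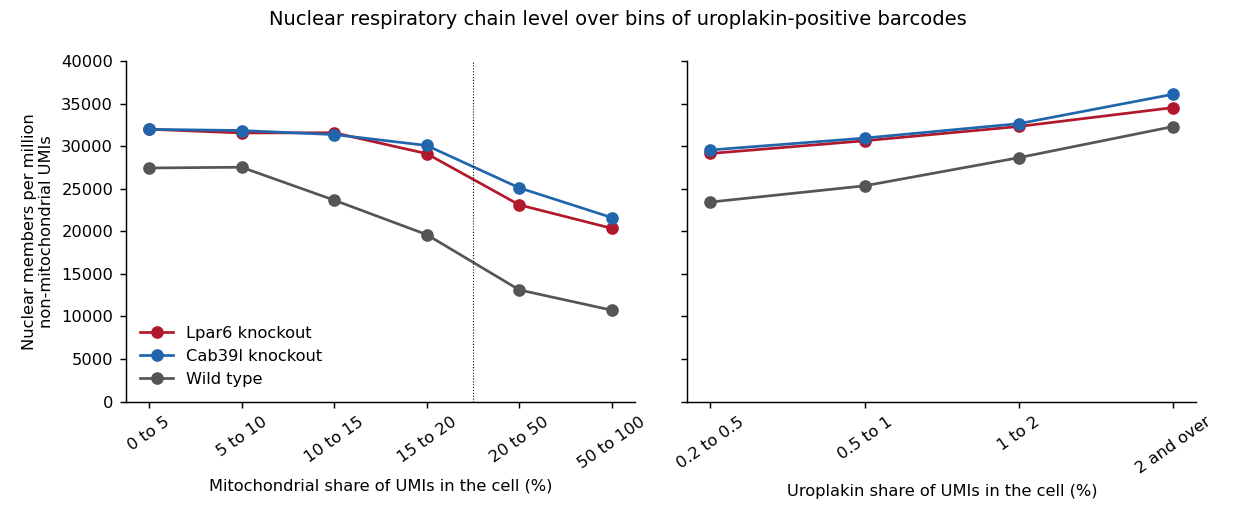
Level of nuclear members (CPM over non-mitochondrial UMIs) in uroplakin-positive barcodes, by bins of mitochondrial share (left; the dotted line is the 20% limit, and barcodes right of it were not used) and by bins of uroplakin share among the cells kept (right); points are single libraries. Both knockouts stay between 29124 and 31993 up to the limit, WT is at 27531 for 5 to 10% and at 19610 for 15 to 20%, and all libraries climb with the uroplakin share. Rpl13, not drawn, drops in WT as well (9194 at 5 to 10% and 5241 at 15 to 20%).

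The other cells of the libraries were few and of different kinds, 33 in Lpar6 KO, 172 in Cab39l KO and 248 in WT, with median depths of 6586 UMIs in Lpar6 KO, 8609.5 in Cab39l KO and 7137.5 in WT. At least 2 leukocyte markers were found in 16 cells of Lpar6 KO, 75 of Cab39l KO and 175 of WT. Markers of secretory male glands (Pbsn, Sbp, Spink1, Svs4) summed to 8415 CPM in the other cells of Lpar6 KO, 120670 CPM in Cab39l KO and 789 CPM in WT, and 69 of the 172 Cab39l knockout cells held at least 2 of them. Haemoglobin and Alas2 together stood at 12142 CPM in Lpar6 KO, 3515 CPM in Cab39l KO and 3807 CPM in WT. All markers of T and NK cells (Cd3e, Cd3d, Trbc2, Nkg7) and of epididymis (Lcn5, Crisp1, Defb30) were at 0 in the 33 Lpar6 knockout cells. The part of this make-up in the comparisons below was not tested.

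Urothelial cells carried more mitochondrial transcripts of the chain than the other cells of their library. In Lpar6 KO they had 67749 CPM, against 50509 CPM in other cells (0.42 higher). In Cab39l KO they had 68218 CPM, against 34357 CPM in other cells (0.99 higher), and in WT 90940 CPM, against 49894 CPM in other cells (0.87 higher). This order rests on the limit of 20%: with no limit it turned round to -0.24 in Lpar6 KO and -0.69 in WT, and was 0.80 in Cab39l KO. The nuclear sum was higher in urothelial cells of both knockouts, with 29413 CPM in urothelial and 22343 CPM in other cells of Lpar6 KO (0.40 higher). The values were 29619 CPM in urothelial and 27291 CPM in other cells of Cab39l KO (0.12 higher), and 23644 CPM in urothelial and 24126 CPM in other cells of WT (-0.03). The WT order turned under each of the 4 alternatives run (0.03 to 0.44 higher in urothelial cells), so no order is read for nuclear members in WT. Genes tested here had at least 10 CPM as the mean of urothelial and other cells of the library. Their median log2 was -0.17 in Lpar6 KO, 0.11 in Cab39l KO and 0.009 in WT. That of nuclear members was 0.34 in Lpar6 KO, 0.07 in Cab39l KO and -0.08 in WT. In Cab39l KO, 40 of 86 nuclear members lay above the median of all genes. The members there were thus not higher than genes in general. In Lpar6 KO, 18 of 85 nuclear and 2 of 13 mitochondrial members were at least 1.5-fold higher in urothelial cells. Of all 7411 genes tested, 18.1% were, so this count is near that share and is not read as a result about the members. There 1 nuclear member was lower, where 31.3% of genes were. In Cab39l KO, 9 of 86 nuclear and 11 of 13 mitochondrial members were higher (25.3% of 7008 genes). There 3 nuclear members were lower (19.1%). In WT, 2 of 84 nuclear and 9 of 13 mitochondrial members were higher (21.8% of 8190 genes) and 1 nuclear member lower (23%).

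Among the complexes, complex III had the highest ratio of urothelial to other cells in every library. Its nuclear subunits were 0.70 higher than in other cells in Lpar6 KO, 0.36 in Cab39l KO and 0.23 in WT, though in Cab39l KO the counting interval overlapped that of complex II (0.32). Its mitochondrial subunit mt-Cytb was 0.72 higher in Lpar6 KO, 1.29 in Cab39l KO and 1.16 in WT. Uqcr10 was at 887 CPM in urothelial and 369 CPM in other cells of Lpar6 KO. It was at 920.5 CPM in urothelial and 447 CPM in other cells of Cab39l KO, and at 660 CPM in urothelial and 363 CPM in other cells of WT. Against leukocyte-marked other cells alone, which were chosen after the values were seen, the urothelial nuclear sum was 0.59 higher in Lpar6 KO, 0.34 in Cab39l KO and 0.15 in WT, and the mitochondrial sum 0.56 higher in Lpar6 KO, 0.26 in Cab39l KO and 1.15 in WT.

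**Figure D5:**
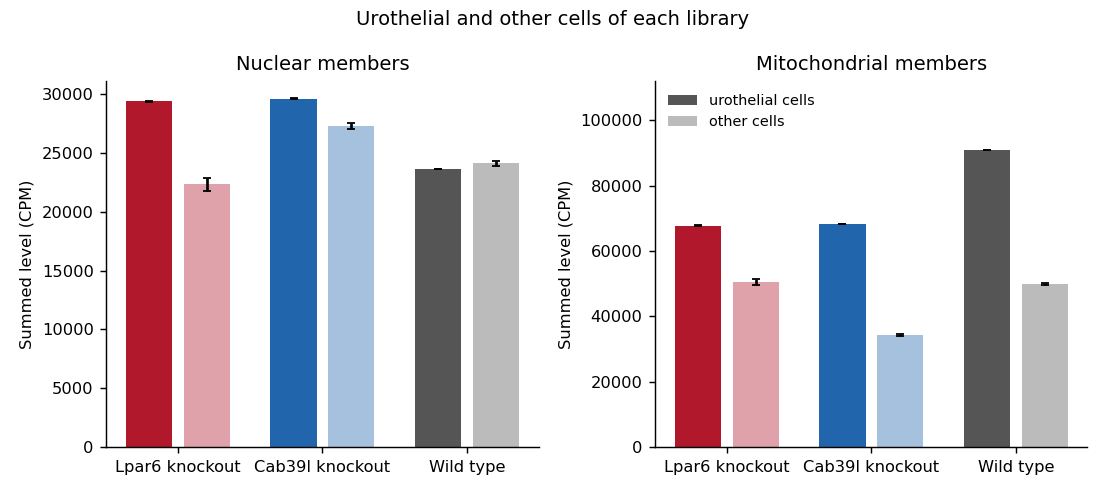
Summed level (CPM) of nuclear members (left) and mitochondrial members (right) in urothelial cells (dark bars) and other cells (light bars) of each library; whiskers are exact 95% Poisson intervals. Mitochondrial members are higher in urothelial cells of every library under the 20% limit (without it the order turns in Lpar6 KO and WT). The nuclear sum is higher in urothelial cells of both knockouts and close in WT (23644 CPM in urothelial and 24126 CPM in other cells, an order that turned under each alternative run). In Cab39l KO the median log2 of nuclear members (0.07) is not above that of all genes tested (0.11).

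The genes around the chain were read from lists of other pathway genes. Of 7 further subunits and carriers none was 1.5-fold apart from WT in either knockout. Cycs, the cytochrome c that links complexes III and IV, was at 103 CPM in Lpar6 KO, 103 CPM in Cab39l KO and 98.7 CPM in WT. Cyc1, the cytochrome c1 of complex III, was at 143 CPM in Lpar6 KO, 156 CPM in Cab39l KO and 122 CPM in WT. None of 22 assembly factors passed the limit, and their medians were 0.05 in Lpar6 KO and 0.09 in Cab39l KO. Surf1, needed for complex IV, was at 58.9 CPM in Lpar6 KO, 60.9 CPM in Cab39l KO and 43.2 CPM in WT, and Ttc19, a complex III factor, was at 20.2 CPM in Lpar6 KO, 20.2 CPM in Cab39l KO and 28.0 CPM in WT. None of 75 genes of the mitochondrial ribosome passed it, with list medians of 0.21 in Lpar6 KO and 0.18 in Cab39l KO. Of all genes tested, 30.3% were 1.5-fold lower and 1.25% higher in Lpar6 KO, and 31.9% and 0.966% in Cab39l KO. These null counts do not hold under TMM. There Surf1 (0.85 in Lpar6 KO, 0.89 in Cab39l KO) and Cyc1 (0.65, 0.76) passed 1.5-fold. Cycs (0.48, 0.46) and Ttc19 (-0.05, -0.06) did not. The ribosome genes ran from Mrps5 (0.14, 0.21) to Mrps12 (0.94, 0.91).

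Carriers had medians close to that of the nuclear chain genes, and citrate cycle enzymes lay near 0. The 7 carriers and pores had medians of 0.27 in Lpar6 KO and 0.26 in Cab39l KO. Slc25a3, the phosphate carrier that feeds ATP synthase, was at 490 CPM in Lpar6 KO, 546 CPM in Cab39l KO and 356 CPM in WT (0.46 in Lpar6 KO and 0.61 in Cab39l KO), past 1.5-fold in Cab39l KO only. The 13 citrate cycle enzymes had medians of -0.08 in Lpar6 KO and -0.0029 in Cab39l KO. The lowest were Dlst and Ogdh, which encode subunits of 2-oxoglutarate dehydrogenase, and both stay below WT under TMM. Dld, the subunit this enzyme shares with others, stood at -0.21 in Lpar6 KO and -0.19 in Cab39l KO, and above WT under TMM. Dlst was at 23.4 CPM in Lpar6 KO, 24.9 CPM in Cab39l KO and 38.4 CPM in WT (-0.69 in Lpar6 KO and -0.60 in Cab39l KO), and Ogdh was at 45.6 CPM in Lpar6 KO, 45.1 CPM in Cab39l KO and 67.7 CPM in WT (-0.56 in Lpar6 KO and -0.58 in Cab39l KO).

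Genes that maintain or express mitochondrial DNA varied, with 3 of 10 past 1.5-fold on the low side in Lpar6 KO, 2 of 10 in Cab39l KO and none on the high side, where 30.3% of all genes tested were lower in Lpar6 KO and 31.9% in Cab39l KO. Tfam, which packs and transcribes mitochondrial DNA, was at 46.1 CPM in Lpar6 KO, 42.5 CPM in Cab39l KO and 46.2 CPM in WT. Lrpprc, which stabilises mitochondrial mRNAs, was at 9.42 CPM in Lpar6 KO, 9.22 CPM in Cab39l KO and 18.0 CPM in WT (-0.86 in Lpar6 KO and -0.89 in Cab39l KO). Its partner Slirp was at 82.9 CPM in Lpar6 KO, 81.3 CPM in Cab39l KO and 67.1 CPM in WT (0.30 in Lpar6 KO and 0.27 in Cab39l KO). Polg, the mitochondrial DNA polymerase, was at 17.9 CPM in Lpar6 KO, 21.0 CPM in Cab39l KO and 31.9 CPM in WT. Lars2 was at 46.7 CPM in Lpar6 KO, 41.3 CPM in Cab39l KO and 243 CPM in WT, and moved with the ribosomal RNA locus Gm42418 given above, whose part in it was not tested. Of the nuclear regulators, 3 of 7 could be read, and these were lower than WT in both knockouts. Under TMM, Ppargc1a stood at -0.42 in Lpar6 KO and, close to level, at -0.06 in Cab39l KO. There Esrra stood at -0.26 in Lpar6 KO and -0.10 in Cab39l KO, and Yy1 at -0.21 in Lpar6 KO and -0.29 in Cab39l KO. Ppargc1a, the coactivator of mitochondrial biogenesis, was at 11.0 CPM in Lpar6 KO, 14.4 CPM in Cab39l KO and 20 CPM in WT. Its partner receptor Esrra was at 26.5 CPM in Lpar6 KO, 29.9 CPM in Cab39l KO and 42.7 CPM in WT, and the transcription factor Yy1 was at 76.6 CPM in Lpar6 KO, 73.1 CPM in Cab39l KO and 119 CPM in WT. All 3 were past 1.5-fold in Lpar6 KO and 1, Yy1, in Cab39l KO. The longest annotated transcripts of Ppargc1a, Yy1, Lrpprc, Polg and Ogdh are over 4 kb. At that length the median of all genes was -0.65 in Lpar6 KO and -0.70 in Cab39l KO. Those of Tfam, Ssbp1, Slc25a3 and Vdac3 are over 4 kb as well. Their values lay between -0.12 (Tfam in Cab39l KO) and 0.61 (Slc25a3 in Cab39l KO). Which transcript is present in these cells was not read, and the part of length in the values of all these genes was not tested.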

How the data were processed

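The deposited values are whole-number UMI counts per gene and cell barcode. Per the submitters' processing notes they were made with Cell Ranger 3.0.2 on mm10. The release of the gene annotation was not stated. No reads were used. UMIs were summed over the cells of the rule in each library and divided by their total (128620816 in Lpar6 KO, 159977320 in Cab39l KO and 78491895 in WT), which gives CPM. Intervals are exact at 95%, Poisson for levels and binomial (Clopper-Pearson) for shares. They cover counting error only. A pseudocount of 1 CPM was used. A 3′ library counts about 1 tag per molecule, so levels were not divided by length. No doublets were removed, except in an alternative. Gene positions and lengths came from GENCODE vM21 (GRCm38), in which 30934 of 31053 identifiers and all 110 members were found. The length of a gene is that of its longest annotated transcript. Python 3.11.15, numpy 2.4.6, scipy 1.17.1, pandas 2.3.3, scanpy 1.11.5 (doublet scores) and matplotlib 3.10.9 were used.

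Named were the 3 most abundant nuclear members of each complex, members at least 1.5-fold apart from WT, the 3 highest and 3 lowest nuclear members of each comparison, all mitochondrial members, isoform pairs, and 2 to 4 genes of each pathway list. Atp5b, Atp5a1, Uqcrc1, Uqcr10 and Ogdh were also described for their values. Members and lists were chosen with earlier results of these data known. The steps were tested on simulated data (7036 genes per comparison): changes of 1.75, 2 and 4-fold were recovered in 100% of changed genes in both comparisons, and 0% of unchanged genes were called; the simulation holds counting error only and leaves out the spread between libraries.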

Additional observations from a re-analysis of the deposited data

Results flagged for a closer look

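The difference between knockout and WT had opposite signs in urothelial and other cells for several sums of the chain, nearly all in Lpar6 KO. These differences were not tested, since each group is 1 library, and the other cells were 33 in Lpar6 KO, 172 in Cab39l KO and 248 in WT, of unlike kinds. In Lpar6 KO, the nuclear sum stood at 0.32 in urothelial and -0.11 in other cells (log2 against WT), a difference of 0.43. By complex, that difference was 0.39 for nuclear complex I, 0.47 for complex III, 0.54 for complex IV and 0.38 for complex V. The mitochondrial sum stood at -0.42 in urothelial and 0.02 in other cells, a difference of -0.44, which was also -0.44 without mt-Nd6. The mitochondrial subunits differed by -0.54 in complex I and -0.40 in complex IV. In Cab39l KO, complex II stood at 0.28 in urothelial and -0.004 in other cells, a difference of 0.28. The other-cell values of 0.02 and -0.004 lie within their counting intervals of 0.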

How the results depend on the processing

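Each group was 1 library, so depth set only the counting error, which is small in urothelial cells and larger for the 33 other cells of Lpar6 KO; the spread between mice is not measured. No paired analysis was possible because each group has 1 library and no replicate. In the urothelial comparisons, the nuclear sum was higher in both knockouts under the 12 alternatives run for it, the mitochondrial sum was lower under 8 of the 9 run for it and level under TMM, and the number of members called moved widely. Percentages in brackets are the share of all genes tested that was called in that setting. Log2 values and counts are against WT. With cells of at most 10% mitochondrial UMIs, the nuclear sum was 0.21 (Lpar6 KO) and 0.22 (Cab39l KO), the mitochondrial sum -0.15 (Lpar6 KO) and -0.18 (Cab39l KO) and higher calls numbered 0 (Lpar6 KO, 0.494%) and 1 (Cab39l KO, 0.291%). With no mitochondrial limit, the nuclear sum was 0.43 (Lpar6 KO) and 0.44 (Cab39l KO), the mitochondrial sum -0.70 (Lpar6 KO) and -0.66 (Cab39l KO), higher calls numbered 14 (Lpar6 KO, 2.84%) and 12 (Cab39l KO, 2.11%) and lower calls 12 (Lpar6 KO, 35.1%) and 9 (Cab39l KO, 36.1%). With uroplakins at 1% or more, the nuclear sum was 0.20 (Lpar6 KO) and 0.21 (Cab39l KO), the mitochondrial sum -0.31 (Lpar6 KO) and -0.30 (Cab39l KO) and higher calls numbered 0 (Lpar6 KO, 0.492%) and 1 (Cab39l KO, 0.333%). Under TMM, the nuclear sum was 0.73 (Lpar6 KO) and 0.73 (Cab39l KO), the mitochondrial sum -0.0051 (Lpar6 KO) and -0.0061 (Cab39l KO), higher calls numbered 54 (Lpar6 KO, 14.4%) and 59 (Cab39l KO, 14.6%) and lower calls 1 (Lpar6 KO, 3.55%) and 2 (Cab39l KO, 5.39%). Under median-of-ratios factors, the nuclear sum was 0.67 (Lpar6 KO) and 0.65 (Cab39l KO), the mitochondrial sum -0.074 (Lpar6 KO) and -0.089 (Cab39l KO) and higher calls numbered 46 (Lpar6 KO, 11%) and 44 (Cab39l KO, 9.55%). Scaled to non-mitochondrial UMIs, the nuclear sum was 0.28 (Lpar6 KO) and 0.29 (Cab39l KO). With equal weight per cell, the nuclear sum was 0.38 (Lpar6 KO) and 0.38 (Cab39l KO), the mitochondrial sum -0.48 (Lpar6 KO) and -0.44 (Cab39l KO), higher calls numbered 10 (Lpar6 KO, 2.23%) and 8 (Cab39l KO, 1.58%) and lower calls 5 (Lpar6 KO, 34.6%) and 4 (Cab39l KO, 34.4%). With the transcript-length trend taken off, the nuclear sum was 0.22 (Lpar6 KO) and 0.24 (Cab39l KO), higher calls numbered 9 (Lpar6 KO, 4.78%) and 7 (Cab39l KO, 4.25%) and lower calls 10 (Lpar6 KO, 2.15%) and 9 (Cab39l KO, 1.93%). That trend was fitted without the mitochondrial genes but taken off their values too, and these calls include them. The lower calls of this setting are therefore not read as a result about the members. Within 5 to 10% mitochondrial UMIs (an alternative chosen after seeing the data), the nuclear sum was 0.21 (Lpar6 KO) and 0.22 (Cab39l KO) and higher calls numbered 0 (Lpar6 KO, 0.421%) and 1 (Cab39l KO, 0.29%). With a minimum of 1000 UMIs, the nuclear sum was 0.32 (Lpar6 KO) and 0.33 (Cab39l KO) and the mitochondrial sum -0.42 (Lpar6 KO) and -0.41 (Cab39l KO). Without the top 6% of doublet scores, the mitochondrial sum was -0.42 (Lpar6 KO) and -0.41 (Cab39l KO). Other low-level filters and a pseudocount of 0.1 CPM left the counts of calls within 1.5 times. With that pseudocount, lower calls in Lpar6 KO numbered 4 (32.2%), against 3 (30.3%) with 1 CPM.

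Between urothelial and other cells, log2 values of the sums were as follows. With a minimum of 1000 UMIs, nuclear sums were 0.57 (Lpar6 KO), 0.13 (Cab39l KO) and 0.16 (WT), and mitochondrial sums 0.61 (Lpar6 KO), 0.97 (Cab39l KO) and 0.96 (WT). With at most 10% mitochondrial UMIs, nuclear sums were 0.40 (Lpar6 KO), 0.12 (Cab39l KO) and 0.029 (WT), and mitochondrial sums 0.40 (Lpar6 KO), 1.01 (Cab39l KO) and 0.83 (WT). With no mitochondrial limit, nuclear sums were 0.46 (Lpar6 KO), 0.11 (Cab39l KO) and 0.44 (WT), and mitochondrial sums -0.24 (Lpar6 KO), 0.80 (Cab39l KO) and -0.69 (WT). With leukocyte-marked other cells (chosen after seeing the data), nuclear sums were 0.59 (Lpar6 KO), 0.34 (Cab39l KO) and 0.15 (WT), and mitochondrial sums 0.56 (Lpar6 KO), 0.26 (Cab39l KO) and 1.15 (WT). With no mitochondrial limit the mitochondrial order in WT and in Lpar6 KO turned round, when other cells numbered 38 (Lpar6 KO), 181 (Cab39l KO) and 476 (WT); the cause was not tested.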
